A study of Homo sapiens with 8 samples.

Results

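The response of ceritinib-resistant lung cancer cells to a second ALK inhibitor, crizotinib, was read from a pair of expression arrays, 2 of the 8 in the series. H3122 is an established human lung adenocarcinoma cell line that carries the EML4-ALK fusion, and H3122-LR2 and H3122-LR3 are derivatives of it that resist ceritinib. The compared groups were H3122-LR2 cells incubated with 1000 nM crizotinib for 6 h and H3122-LR2 cells with no agent. Set beside them were H3122-LR2 cells with 1000 nM ceritinib for 6 h, and parental H3122 cells with 1000 nM crizotinib for 6 h and with no agent. Parental H3122 cells with 1000 nM ceritinib for 6 h, and H3122-LR3 cells with the same ceritinib treatment and with no agent, entered some comparisons and the limma fits. All lines carried EML4-ALK and were grown in RPMI with serum. Whether the LR2 line is 1 clone is not given in the sources used here. Each condition had 1 array, so a difference between 2 arrays has no replicate check, and no p-value belongs to the LR2 pair alone.

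Each gene was represented by the brightest of its probe sets that the platform table assigns to 1 symbol, which gave 18132 genes. A gene was kept when its log2 signal exceeded 5.36, the median of all deposited values, on at least 2 of the 8 arrays. This left 10527 genes. Differences are log2 signal with crizotinib minus log2 signal without agent, and a gene is called higher or lower at 1.5-fold or more, a threshold between 0.58 and 0.59 on the log2 scale. Levels are not compared between genes, because a probe set's signal also depends on its own sequence.

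ALK is a receptor tyrosine kinase, and its fusion to EML4 keeps the kinase active without a ligand. An active ALK fusion drives the RAS-RAF-MEK-ERK cascade, PI3K-AKT and STAT3, and ERK in turn induces the transcription of its own inhibitors, among them the DUSP phosphatases and the Sprouty and SPRED proteins. AKT keeps FOXO transcription factors out of the nucleus, so FOXO targets are held low while the pathway runs. Crizotinib, which also inhibits MET and ROS1, and ceritinib both bind the ALK kinase domain.

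Both arrays carried lung epithelial markers. All 9 lung epithelial markers were above the floor, among them the lineage factor NKX2-1 at 11.10 with crizotinib and 10.46 untreated, and the keratin KRT18 at 13.59 with crizotinib and 13.82 untreated. Of 12 measured markers of fibroblasts, leukocytes and endothelial cells, 9 were too dim to be kept, and the 3 kept (VWF, CDH5 and KDR) differed by -0.33 to 0.24. The line difference was also kept under crizotinib. Of 138 genes at least 2-fold apart between untreated LR2 and untreated parental cells, 138 had the same direction between the crizotinib arrays, at a median of 0.908 times the untreated difference on the log2 scale. Both LR2 arrays had a median signal of 5.34. The 3' minus 5' signal of GAPDH was -0.10 with crizotinib and -0.08 untreated, and that of ACTB was 0.26 with crizotinib and 0.09 untreated. The part of this ACTB difference in the results was not tested.

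With crizotinib, 236 genes were higher and 248 were lower in LR2 cells, 2.24% and 2.36% of the genes kept. At 2-fold these counts were 50 (0.475%) and 73 (0.693%). The median difference over all kept genes was 0.01 with an SD across genes of 0.299. The 7605 genes too dim to be kept had an SD of 0.205, and 1.13% of them passed 1.5-fold. The 102 control probe sets differed by -0.46 to 0.40, and 0 of them passed it. The lower side reached further than the higher side, with the largest difference at -4.53 for DUSP6 and the largest positive one at 2.04 for FOSL2. On the dimmer of the 2 arrays, 49 of the 248 lower genes and 35 of the 236 higher genes lay below 5.36, where differences near background may be compressed. The threshold itself was not a natural break. ADGRL2 at 0.59 and AP1S3 at -0.59 lay just inside it, and ARFGEF1 at 0.58 and ELK3 at -0.58 just outside.

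Promoter sequence gave a first view of the leading genes. The 250 bases before the start in RefSeq (GRCh38.p14) were searched on both strands for ETS (CCGGAAGT), AP-1 (TGACTCA or TGAGTCA), CRE (TGACGTCA), FOXO (GTAAACA) and E-box (CACGTG) letters and for the CArG box of serum response factor. The 4 promoters below belong to genes far down or far up the ranking and were picked because they held a match, which is in capitals. Each is written on the strand of its gene, which is the plus strand for EGR1 (chr5:138465229-138465478) and KLHL24 (chr3:183635373-183635622) and the minus strand for EPHA2 (chr1:16156070-16156319) and ELF5 (chr11:34511725-34511974).
EGR1: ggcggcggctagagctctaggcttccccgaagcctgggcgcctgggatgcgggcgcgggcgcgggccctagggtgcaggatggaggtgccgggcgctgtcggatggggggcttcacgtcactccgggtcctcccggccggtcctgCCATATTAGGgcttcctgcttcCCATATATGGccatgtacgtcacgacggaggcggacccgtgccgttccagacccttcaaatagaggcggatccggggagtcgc
EPHA2: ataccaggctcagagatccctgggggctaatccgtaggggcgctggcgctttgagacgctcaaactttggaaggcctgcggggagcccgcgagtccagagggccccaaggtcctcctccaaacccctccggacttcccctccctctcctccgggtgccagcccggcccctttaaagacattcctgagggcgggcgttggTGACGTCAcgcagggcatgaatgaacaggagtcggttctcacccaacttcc
KLHL24: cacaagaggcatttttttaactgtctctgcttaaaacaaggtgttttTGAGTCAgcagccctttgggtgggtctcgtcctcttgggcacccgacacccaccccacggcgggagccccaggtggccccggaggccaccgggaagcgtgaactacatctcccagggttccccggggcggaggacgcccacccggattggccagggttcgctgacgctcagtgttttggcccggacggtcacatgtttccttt
ELF5: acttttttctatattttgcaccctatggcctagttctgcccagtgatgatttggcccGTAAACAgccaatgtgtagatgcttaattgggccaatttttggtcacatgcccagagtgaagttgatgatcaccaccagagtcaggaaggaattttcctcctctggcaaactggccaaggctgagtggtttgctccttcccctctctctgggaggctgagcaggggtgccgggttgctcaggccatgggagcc
EGR1, an immediate early transcription factor, held 2 CArG boxes whose first bases lay 105 and 83 bases before the start. EPHA2, an ephrin receptor kinase, held a CRE at 51 bases. KLHL24, a substrate adaptor of a ubiquitin ligase, held an AP-1 match at 203 bases, and ELF5, an epithelial ETS family factor, a FOXO match at 193 bases. DUSP6, SPRY4, PHLDA1, SHISA2 and FOSL2 held no match in this window. Over the 35116 promoters of the table, 1.16% held a CArG box, 1.65% the CRE, 4.20% AP-1 letters and 2.98% FOXO letters. Among genes with a promoter in the table, FOXO letters were in 6.53% of 199 higher genes, 3.26% of 184 lower genes and 3.03% of 8733 kept genes. AP-1 letters were in 8.54% of the higher, 8.15% of the lower and 4.17% of the kept genes. ETS letters were in 1.51% of the higher, 3.80% of the lower and 8.70% of the kept genes. E-box letters were in 12.1% of the higher, 8.70% of the lower and 11.5% of the kept genes. The CRE was in 3.02% of the higher, 3.80% of the lower and 3.57% of the kept genes. The CArG box was in 1.51% of the higher, 1.63% of the lower and 1.44% of the kept genes. JUNB, a lower gene, also held FOXO letters, at 166 bases. These shares are descriptions without a test.

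Genes that report ERK activity held many of the deepest differences, with DUSP6 and SPRY4 first. Of 27 ERK output genes, all kept, 21 were lower, 0 were higher and 6 did not pass 1.5-fold. Their median was -1.27, against 0.01 over all kept genes. In parental cells crizotinib gave 22 lower and 0 higher with a median of -1.51. In LR2 cells ceritinib gave 3 lower (CXCL8, PHLDA1 and DUSP5) and a median of -0.07. The crizotinib and ceritinib differences of LR2 share the untreated array. In bulk RNA, fewer cells that express a gene and less of its RNA per cell cannot be told apart.

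DUSP6, the phosphatase that inactivates ERK in the cytoplasm, had a log2 signal of 7.26 in LR2 cells with crizotinib, 11.51 with ceritinib and 11.79 untreated. It had 7.93 in parental cells with crizotinib and 12.41 untreated. The LR2 difference was -4.53, or 23.1-fold lower, and all 4 probe sets of the gene lay between -4.78 and -4.47. Crizotinib arrays of both lines were low and the LR2 ceritinib array lay beside the untreated one.

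SPRY4, a Sprouty inhibitor of receptor signalling, had 3.81 with crizotinib, 7.23 with ceritinib and 7.54 untreated in LR2 cells. It had 3.81 with crizotinib and 7.07 untreated in parental cells. The LR2 difference was -3.73 (13.3-fold lower), and the crizotinib value was below the floor in both lines. Its other probe sets were too dim to compare. PHLDA1, a PH domain protein induced by growth factor signalling, had 5.48 with crizotinib, 8.19 with ceritinib and 8.92 untreated, a crizotinib difference of -3.44, and 4 probe sets between -3.84 and -2.18.

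**Figure D1:**
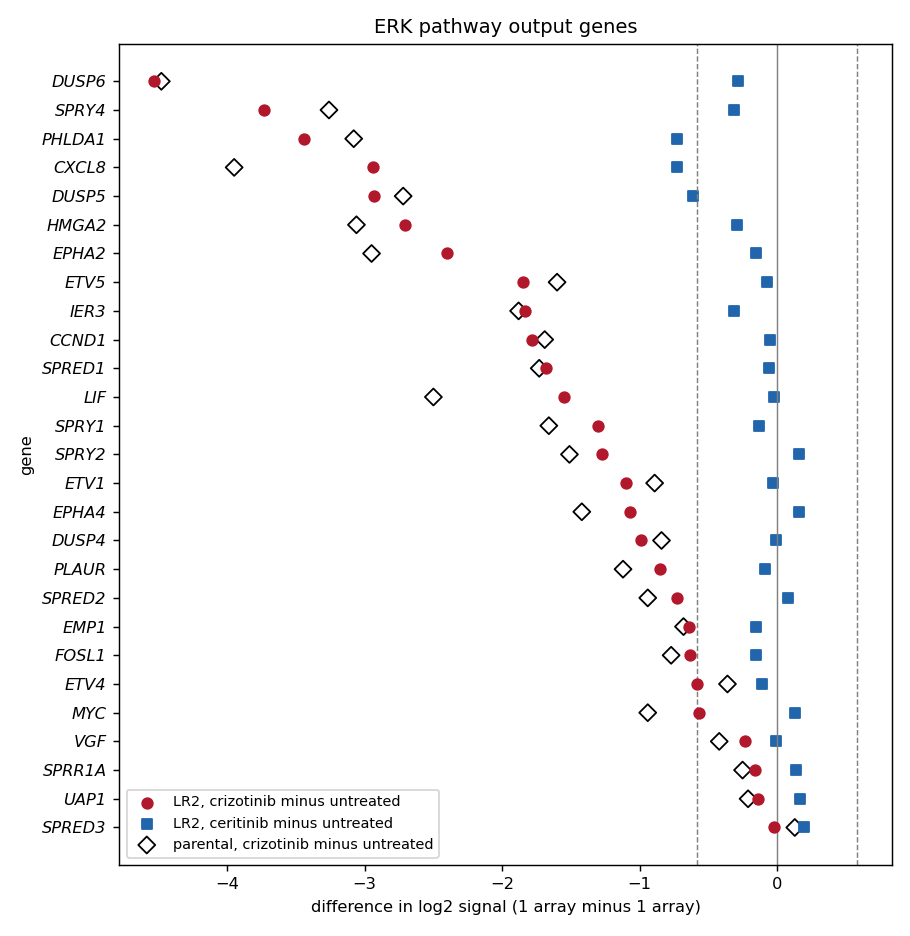
Difference in log2 signal (x axis) of the 27 ERK output genes (y axis) in LR2 cells with crizotinib, in LR2 cells with ceritinib and in parental cells with crizotinib, each against the untreated array of its line. Dashed lines mark 1.5-fold. Crizotinib points of both lines reach below -4 for DUSP6. The LR2 ceritinib points have a median of -0.07, with CXCL8 (-0.73), PHLDA1 (-0.73) and DUSP5 (-0.61) past 1.5-fold.

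The nuclear phosphatase DUSP5 was lower by 2.93 (4.38 with crizotinib, 7.31 untreated), and DUSP4 was lower by 0.99 (8.13 with crizotinib, 9.12 untreated). The ERK pathway inhibitor SPRED1 differed by -1.68, with 5 probe sets between -1.68 and -1.50. SPRY1 differed by -1.30, SPRY2 by -1.27 and SPRED2 by -0.73. SPRED3, near the floor at 5.33 with crizotinib and 5.35 untreated, differed by -0.02. Of these feedback inhibitors, SPRED3 was the only 1 short of 1.5-fold.

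The PEA3 family of ETS factors, transcription factors downstream of ERK, showed a graded difference. ETV5 differed by -1.85 (6.19 with crizotinib, 8.04 untreated), ETV1 by -1.10 and ETV4 by -0.58, which is just short of 1.5-fold. ETV1 had 5.21 with crizotinib, below the floor, and 6.31 untreated. Among secreted factors, the neutrophil chemokine CXCL8 differed by -2.94 (5.59 with crizotinib, 8.53 untreated) and the cytokine LIF by -1.55 (6.19 with crizotinib, 7.74 untreated). LIF's other probe set above the floor differed by -0.83. HMGA2, an architectural chromatin protein, differed by -2.71, the ephrin receptors EPHA2 and EPHA4 by -2.40 and -1.07, and the stress-inducible survival factor IER3 by -1.83. With crizotinib HMGA2 (3.89) and EPHA2 (4.65) were below the floor, as was DUSP5, so the sizes of these differences are uncertain. The ERK targets MYC (-0.57), VGF (-0.23), SPRR1A (-0.16) and UAP1 (-0.14) did not pass 1.5-fold.

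The 12 largest negative differences, taken among genes with no disagreeing probe set above the floor, included genes outside the ERK list. SHISA2, CCDC160, DUSP5, SPRY4 and HMGA2 had no second probe set above the floor to compare. SHISA2, of a family known in Xenopus to hold FGF and Wnt receptors in the endoplasmic reticulum, had 4.15 with crizotinib, 7.13 with ceritinib and 7.76 untreated in LR2 cells. PLK2, a polo-like kinase, had 5.07 with crizotinib and 7.63 untreated, and its 4 probe sets differed by -2.64 to -2.05. PTPRE, a receptor-type tyrosine phosphatase, had 5.34 with crizotinib and 7.74 untreated. CCDC160 had 3.89 with crizotinib, 6.58 with ceritinib and 6.66 untreated. SHISA2, PLK2, PTPRE and CCDC160 were each at or below the floor of 5.36 with crizotinib and above it untreated.

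**Figure D2:**
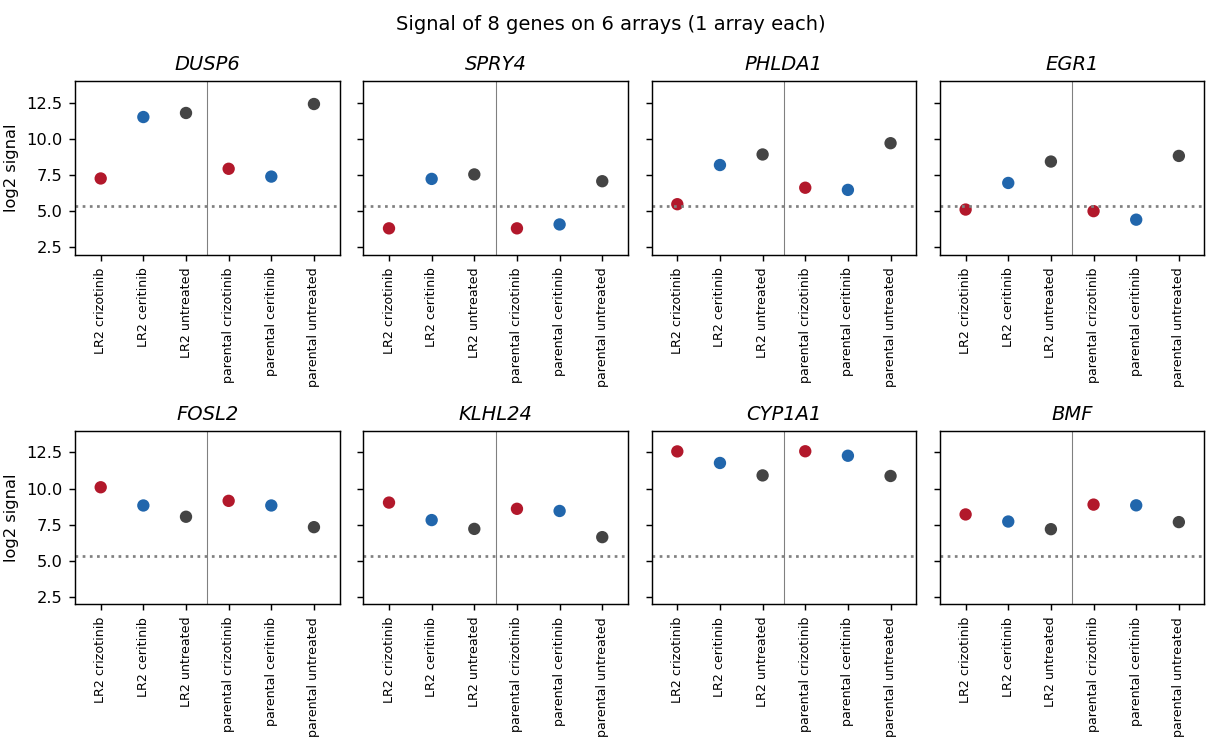
Log2 signal (y axis) of 8 genes on the crizotinib, ceritinib and untreated arrays of LR2 cells and of parental cells, 1 point per array, with the floor of 5.36 dotted. DUSP6, SPRY4, PHLDA1 and EGR1 are low with crizotinib in both lines, and FOSL2, KLHL24, CYP1A1 and BMF are high. LR2 ceritinib points lie between the other 2 LR2 points.

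Immediate early genes are switched on within minutes of a growth signal, and their mRNAs are short-lived. Of 21 kept, 8 were lower and 0 higher, with a median of -0.41, and 13 did not pass 1.5-fold. EGR1, whose promoter with 2 CArG boxes is printed above, had 5.11 with crizotinib, 6.95 with ceritinib and 8.43 untreated in LR2 cells. It had 5.0 with crizotinib and 8.82 untreated in parental cells, and lay below the floor with crizotinib in both lines. The LR2 crizotinib difference was -3.32 (9.99-fold lower), and EGR1 was also 1.48 lower with ceritinib, the only list member past 1.5-fold with that agent in LR2. The matricellular protein CCN2 differed by -2.40 with a crizotinib signal of 3.95, below the floor, the TGF-beta inducible repressor KLF10 by -1.18, and the AP-1 subunits JUNB and JUN by -1.08 and -0.89. DUSP1 (0.17), FOSB (0.21), KLF4 (0.02) and NR4A2 (0.00) were not lower. Between these and the called genes lay MCL1 (-0.43), ZFP36 (-0.41), KLF2 (-0.35) and SRF (-0.33), and 17 of the 21 were below 0.

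FOXO targets and genes of PI3K feedback held the clearest positive differences. Of 29 kept, 14 were higher, 4 lower and 11 did not pass 1.5-fold, with a median of 0.57. KLHL24 had 9.03 with crizotinib, 7.82 with ceritinib and 7.21 untreated in LR2 cells, and 8.60 with crizotinib and 6.64 untreated in parental cells. Its LR2 difference was 1.82 (3.53-fold), and its 3 probe sets lay between 1.10 and 1.82. FBXO32, the ubiquitin ligase subunit atrogin-1, had 7.36 with crizotinib, 6.52 with ceritinib and 5.78 untreated in LR2 cells.

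Crizotinib arrays were the highest of the 3 LR2 arrays for both genes, and the ceritinib array lay between. YPEL2 differed by 1.40, the cyclin CCNG2 by 1.11, the CDK inhibitor CDKN1B by 1.02 and the repressor HBP1 by 0.99. The FOXO1 and FOXO3 transcripts themselves differed by 0.77 and 0.62. The 4 lower members were the pseudokinases TRIB2 (-1.51), TRIB1 (-1.42) and TRIB3 (-1.15) and the stress protein GADD45A (-1.09). The insulin receptor adaptor IRS2 differed by -0.18.

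Among all genes, the largest positive difference was that of FOSL2, an AP-1 subunit. FOSL2 had 10.09 with crizotinib, 8.83 with ceritinib and 8.05 untreated in LR2 cells, and 9.15 with crizotinib and 7.33 untreated in parental cells. Its 5 probe sets differed by 1.12 to 2.04. FOSL1, a related AP-1 subunit in the ERK list, had the opposite sign at -0.63. PRR15L differed by 1.83, CREBRF, a regulator of the CREB3 factor, by 1.68, ELF5 by 1.64 and CXXC4, which binds Dishevelled in Wnt signalling, by 1.58. The potassium channel subunit KCNE3 differed by 1.47 and the neuronal pentraxin NPTX1 by 1.46. CXXC4 and KCNE3 were below the floor without agent, and their other probe sets were too dim to compare.

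CYP1A1, a cytochrome P450 induced through the aryl hydrocarbon receptor, was bright on every LR2 array, at 12.57 with crizotinib, 11.77 with ceritinib and 10.91 untreated. Its difference was 1.66 (3.16-fold), and its other probe set gave 1.78. Of the 9 receptor targets and components kept, 4 were higher and 0 lower, with a median of 0.51. The receptor's repressor AHRR differed by 1.12, the ADP-ribosyltransferase TIPARP by 0.71 and CYP1B1 by 0.59, whereas CYP1A2 (-0.04), NQO1 (-0.05) and AHR itself (-0.05) were near 0. AHRR's other probe set above the floor differed by 0.16.

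BCL2 family proteins set the threshold for mitochondrial apoptosis. Of 14 kept, 4 were higher and 1 lower, and the 4 higher ones were all pro-apoptotic BH3-only genes. BMF had 8.21 with crizotinib, 7.72 with ceritinib and 7.19 untreated, a crizotinib difference of 1.02, while its 3 other probe sets had a median of 0.32. BBC3 (PUMA) had 7.79 with crizotinib, 7.59 with ceritinib and 6.95 untreated, a crizotinib difference of 0.84, and 0.15 on its other probe set above the floor. BCL2L11 (BIM), which ERK signalling is known to suppress, had 8.67 with crizotinib, 8.23 with ceritinib and 7.88 untreated, a difference of 0.79, and its 7 other probe sets above the floor had the same sign. BIK differed by 0.60.

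The lower member was also a BH3-only gene, PMAIP1 (NOXA), which had 7.01 with crizotinib and 8.10 untreated. Of the anti-apoptotic members, MCL1 differed by -0.43, BCL2L2 by -0.16, BCL2 by -0.11 and BCL2L1 by 0.08, all short of 1.5-fold. For MCL1, 4 of 5 other probe sets had the same sign and the lowest gave -0.96. In parental cells crizotinib likewise gave 4 higher and 1 lower.

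Most receptor genes lay near 0. ALK had 8.41 with crizotinib, 8.55 with ceritinib and 8.47 untreated in LR2 cells, and its 2 probe sets both differed by -0.06. EML4 differed by 0.08. FGFR3, the FGF receptor named in the title of the series, had 7.81 with crizotinib, 7.96 with ceritinib and 7.65 untreated, a difference of 0.16. Its other probe set, which is below the floor, gave -0.26. Of 13 kept ALK and bypass receptor genes, 1 was higher and 1 lower. Over all kept genes 2.24% were higher and 2.36% lower, so 1 gene each way in so short a list is not read as a result about the list. IGF1R, the insulin-like growth factor receptor, was higher at 8.25 with crizotinib and 7.57 untreated on its brightest probe set. Its 3 others above the floor had a median of 0.22, and 0 of them passed 1.5-fold. ERRFI1, which encodes the EGFR inhibitor MIG6, was lower at 9.57 with crizotinib, 10.77 with ceritinib and 11.19 untreated.

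ERBB3 at 0.57 stayed just short of 1.5-fold, with ERBB2 at 0.34 and MET, itself a crizotinib target, at -0.37. Among 6 kept FGF genes the ligand FGF9 differed by 0.89 (6.05 with crizotinib, 5.16 untreated) and the FGF binding protein FGFBP1 by -0.94 (8.02 with crizotinib, 8.96 untreated). FGF9 was below the floor untreated, and its other probe set was too dim to compare. In so short a list these values are likewise not read as a result about the list. KIT had 4.14 with crizotinib and 3.03 untreated, both below the floor, so it was not kept. In the RAS and MAPK list, the exchange factor SOS1 differed by 1.01 and the adaptor GAB1 by 0.84. GAB1 was below the floor untreated (4.55), and its other probe sets were too dim to compare. The kinases and GTPases kept, such as MAP2K1 (-0.05), MAPK3 (0.02) and HRAS (-0.04), did not pass 1.5-fold.

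**Figure D3:**
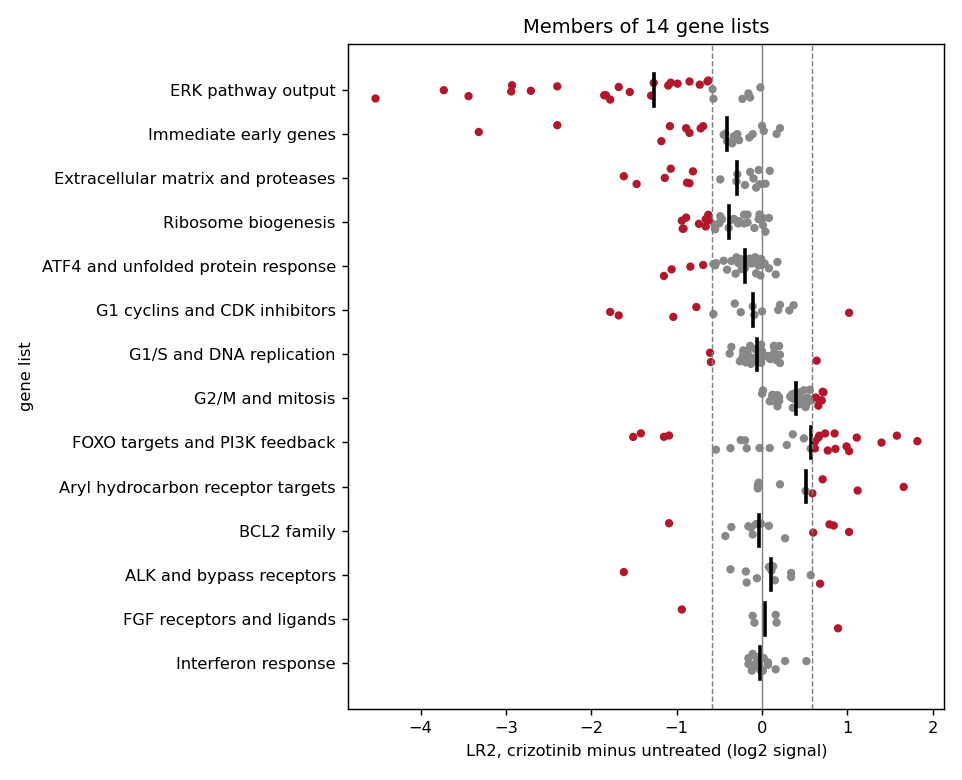
Difference of LR2 cells with crizotinib minus untreated (x axis, log2 signal) for each kept member of 14 gene lists (y axis), red at 1.5-fold or more and grey below, with vertical bars at list medians. The ERK list has its median at -1.27 and the FOXO list at 0.57, while the interferon list lies near 0 at -0.03.

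Of 15 kept G1 cyclins, kinases and inhibitors of the cell cycle, 4 were lower, 1 higher and 10 did not pass 1.5-fold. Cyclin D1 (CCND1) had 10.57 with crizotinib, 12.30 with ceritinib and 12.35 untreated, a difference of -1.78, and its 4 probe sets lay between -1.94 and -1.78. Cyclin E1 (CCNE1) differed by -1.68 on its brightest probe set (5.16 with crizotinib, below the floor, and 6.84 untreated). It differed by 0.01 on a dimmer one below the floor. The phosphatase CDC25A differed by -1.04 and cyclin E2 (CCNE2) by -0.77. CDKN1B, which encodes the CDK inhibitor p27, had 10.25 with crizotinib, 9.67 with ceritinib and 9.23 untreated.

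Of 42 G1/S and DNA replication genes, 2 were lower (MCM10 at -0.61 and CDC6 at -0.60) and 1 higher (E2F8 at 0.64), with a median of -0.06, and 39 did not pass 1.5-fold. Over all kept genes 4.60% passed it, so counts this small are near that share. Of 38 G2/M and mitosis genes, 6 were higher, 0 lower and 32 did not pass 1.5-fold, 37 were above 0 and the median was 0.40. Over all kept genes 2.24% were higher, 5379 of 10527 were above 0 and the median was 0.01. NEK2 differed by 0.72, the spindle protein ASPM by 0.71, the phosphatase CDC25C by 0.70 and the kinesin KIF20A by 0.68. MKI67 at 0.35, CCNB1 at 0.20 and PLK1 at 0.18 did not pass 1.5-fold. In parental cells crizotinib gave 9 higher and 0 lower mitosis genes with a median of 0.43.

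Of 33 genes of ribosome production, 9 were lower, 0 higher and 24 did not pass 1.5-fold. Their median was -0.39, and 29 were below 0. LYAR differed by -0.94, NOP16 by -0.93, RRS1 by -0.92 and PPAN by -0.89. The abundant nucleolar proteins NPM1 (0.08), FBL (0.04) and NCL (-0.04) were near 0. Parental cells had 8 lower and 0 higher with a median of -0.37.

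Of 18 kept extracellular matrix and protease genes, 7 were lower, 0 higher and 11 did not pass 1.5-fold, with a median of -0.30. The stromelysin MMP10 differed by -1.62, the collagenase MMP1 by -1.47 (8.59 with crizotinib, 10.06 untreated), the integrin ITGA2 by -1.14 and the urokinase PLAU by -1.07. MMP10 was below the floor with crizotinib (4.26) and above it untreated (5.88), so the size of its difference is uncertain.

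Stress and metabolic lists varied. ATF4 and unfolded protein response genes had 4 lower and 0 higher of 35 kept, led by TRIB3 (-1.15) and the glutathione-degrading enzyme CHAC1 (-1.06), against 12 lower in parental cells. In LR2 cells 31 of the 35 were below 0, with a median of -0.20. Over all kept genes 2.36% were lower and the median was 0.01. None of 24 cholesterol and fatty acid genes, 17 interferon response genes or 8 drug transporters passed 1.5-fold. Over all kept genes 4.60% passed it, so 0 in lists this small is near that share. Of 31 glycolysis and hypoxia genes, 3 were lower, namely EGLN3 (-1.0), PFKFB3 (-0.82) and VEGFA (-0.74), and KDM3A (0.61) was higher. EGLN3 was below the floor with crizotinib, at 5.09. VEGFA's parental difference was -1.46.

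Agreement across probe sets was the internal check that the pair allowed. Of the 236 higher genes, 125 had another probe set above the floor, and in 121 of these (96.8%) every other probe set had the same sign. Of the 248 lower genes, 130 had another, and in 129 (99.2%) all agreed in sign. Among genes short of 1.5-fold the share was 57.9%. Sizes agreed less often. Of the other probe sets, 129 of 240 (53.8%) for higher genes and 162 of 239 (67.8%) for lower genes also passed 1.5-fold. The genes with a disagreeing probe set were KIF21B, PIK3IP1, SNAPC3, TP53INP1 and VWA8. Probe sets of a gene share the hybridised RNA, so their agreement bears on the probes and not on the spread between cultures.

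**Figure D4:**
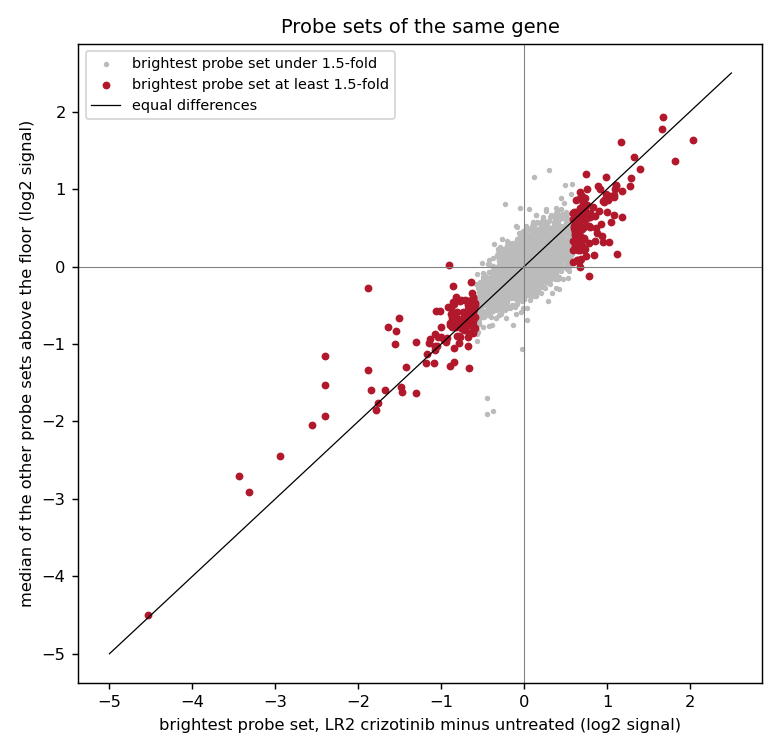
Difference of LR2 cells with crizotinib minus untreated for the brightest probe set of a gene (x axis) and the median of its other probe sets above the floor (y axis), both in log2 signal, for 5967 genes. The 255 red points passed 1.5-fold on the brightest probe set, and nearly all lie where both values share a sign.

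Parental cells given the same agent offered the nearest comparison, since those 2 arrays are not among the LR2 ones. Parental crizotinib gave 347 higher genes (3.3%) and 282 lower (2.68%). Of these, 162 were higher in both lines, which is 68.6% of the LR2 list and 46.7% of the parental list. A further 180 were lower in both, 72.6% of the LR2 list and 63.8% of the parental list, and 0 genes passed 1.5-fold in opposite directions. Across the 10527 genes the differences of the lines had a Pearson r of 0.780. Genes are not independent replicates, and this is a description. Of the 484 genes past 1.5-fold in LR2, 475 had the same sign in parental cells.

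**Figure D5:**
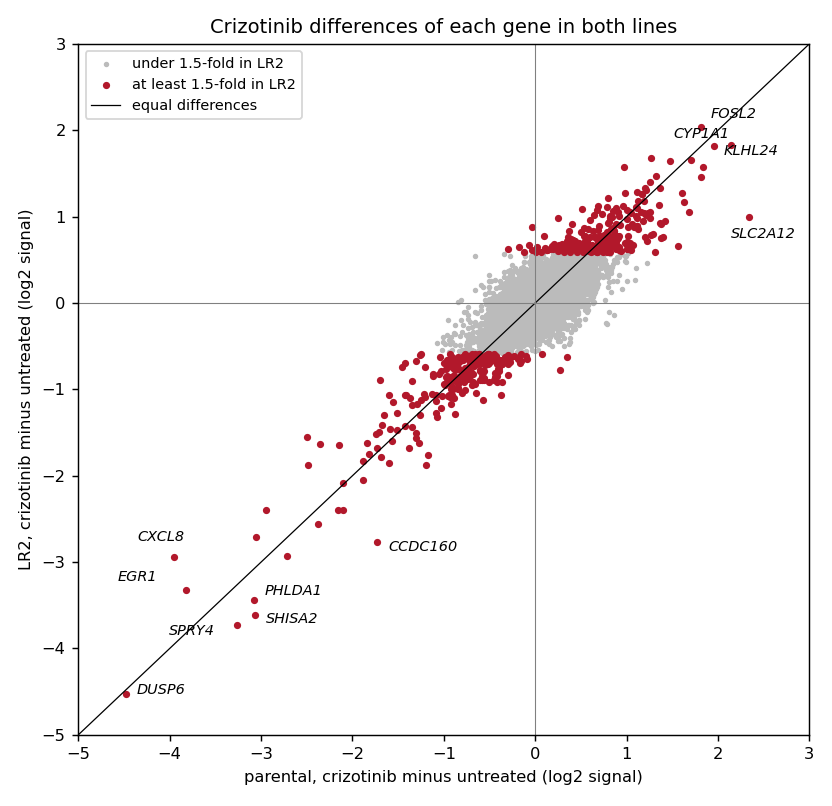
Difference with crizotinib of each of the 10527 kept genes in LR2 cells (y axis) and in parental cells (x axis), both in log2 signal, with the line of equal differences. Red points passed 1.5-fold in LR2. DUSP6 lies at -4.53 in LR2 and -4.48 in parental cells, near the line, and CXCL8 and SLC2A12 lie off it.

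The sizes of the LR2 and parental differences were at least 1.5-fold apart for 136 genes (1.29%), 66 higher (0.627%) and 70 lower (0.665%) in LR2. The glucose transporter SLC2A12 had 5.92 with crizotinib and 4.92 untreated in LR2 cells, against 7.44 with crizotinib and 5.10 untreated in parental cells, a difference of 1.0 in LR2 and 2.34 in parental cells. CCDC160 differed by -2.77 in LR2 and -1.73 in parental cells. CXCL8 differed by -2.94 in LR2 and -3.95 in parental cells, and LIF by -1.55 in LR2 and -2.50 in parental cells. The crizotinib levels of both cytokines were close in the lines (5.59 in LR2 and 5.72 in parental cells for CXCL8), whereas their untreated levels were lower in LR2 (8.53 in LR2 and 9.67 in parental cells).

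Ceritinib at the same dose and time is set beside crizotinib without a test, because the LR2 differences share the untreated array. In LR2 cells ceritinib gave 70 higher genes (0.665%) and 15 lower (0.142%). The 236 genes higher with crizotinib in LR2 had medians of 0.72 with crizotinib and 0.42 with ceritinib in LR2, and of 0.78 with crizotinib and 0.75 with ceritinib in parental cells. The 248 lower genes had medians of -0.80 with crizotinib and -0.13 with ceritinib in LR2, and of -0.80 with crizotinib and -0.83 with ceritinib in parental cells. These genes were chosen on the first of those values. Over all kept genes the LR2 ceritinib array had a median difference of 0.10, against 0.01 for LR2 crizotinib.

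The tests that the design allows pool lines and say nothing of LR2 alone. An additive limma model of line and agent over the 8 arrays called 297 genes higher (2.82%) and 101 lower (0.959%) for crizotinib at a Benjamini-Hochberg adjusted p under 0.05. It called 0 genes when the crizotinib or untreated array of LR2 or parental cells was left out, and 792 higher and 737 lower without the parental ceritinib array. Its residual also holds the unequal ceritinib differences of the lines. In that fit DUSP6 was not called, at -4.09 ± 1.06 (SE, adjusted p = 0.0665). A limma fit of the 4 crizotinib and untreated arrays of LR2 and parental cells alone, added after the data were seen and with 1 residual degree of freedom, called 2 genes higher and 16 lower (0.171% in all). It gave DUSP6 -4.51 ± 0.06 (SE, adjusted p = 0.0234), CCND1 -1.74 ± 0.07 (SE, adjusted p = 0.0476), KLHL24 1.89 ± 0.07 (SE, adjusted p = 0.0476) and CYP1A1 1.69 ± 0.06 (SE, adjusted p = 0.0476), each in the same direction in 2 of 2 lines. These calls depended on the processing. The same fit called 0 genes higher and 1 lower without the filter on dim genes, and 1182 higher and 981 lower after quantile normalization. A limma term for a departure of the LR2 crizotinib array from the additive model called 0 genes, with 314 at an unadjusted p under 0.05 and a lowest adjusted p of 0.950. That does not show that the lines responded alike, since 1 array carried the term. Its fit also holds the ceritinib arrays, so the term is not the LR2 minus parental crizotinib difference. For DUSP6 the term was -2.42, though the crizotinib differences were -4.53 in LR2 and -4.48 in parental cells. In the 4-array fit each gene's own residual is the disagreement between its LR2 and parental crizotinib differences. In the fits over 8 arrays it is the departure from additive line and agent terms. Neither is a spread between replicates, and technical and biological parts of it cannot be told apart. The limma fits also draw each gene's spread toward a spread shared by all genes. In the 4-array fit that shared part had 2.31 degrees of freedom, against 1 for the gene's own residual. NEK2, at 0.72 in both lines, still had an SE of 0.06 there. The SE of 0.06 for DUSP6 is therefore not a spread measured on that gene alone.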

How the data were processed

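RNA of each condition was amplified with a 3' IVT kit and hybridised to 1 biotin-labelled array, per the labels' protocols. The authors deposited log2 signals per probe set, made with RMA per the submitters' processing notes. The RMA software, its version and which arrays were normalized together were not stated there. The table held 49395 probe sets, of which 44988 had 1 symbol in the platform's probe table, 1832 had several and 2473 had none, 102 controls apart. No further normalization was applied. Single differences were taken in Python 3.11.15 with pandas 2.3.3, and models were fitted in R 4.3.3 with limma 3.58.1 (lmFit and eBayes, Benjamini-Hochberg adjustment). Tested on simulated data of 10527 genes, the additive fit recovered 100% of genes changed by 1 and by 2 on the log2 scale with 8 false calls, the 4-array fit 100% with 12 false calls, and the departure fit 98% and 100% with 16. The simulated data took their spread from the 4-array fit and held no ceritinib difference. The real additive and departure fits also face the unequal ceritinib differences of the lines, so these shares do not carry over to them. Precision is limited by the number of arrays. Members, gene lists and rules were chosen with earlier results of these data known. Named genes were the 12 largest differences each way with agreeing probe sets, up to 4 members past 1.5-fold of each list, and members of the ERK, immediate early, BCL2, receptor and FGF lists. The text names fewer, and names further list members and the genes with disagreeing probe sets after their values were seen. List members with no probe set of 1 symbol were not analysed here. Alternatives covered probe set choice, centring, quantile normalization, filters, fold, intensity trend and each array left out.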

Additional observations from a re-analysis of the deposited data

Results flagged for a closer look

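Among the 10 genes whose crizotinib differences were furthest apart between LR2 and parental cells, 6 had opposite signs in the lines. Ranking on that gap itself favours opposite signs, so the count of 6 is not a result about the lines. Over all kept genes 67.7% had the same sign in both lines. JRKL differed by 0.54 in LR2 and -0.66 in parental cells, so the LR2 difference was 1.20 higher. HKDC1, a hexokinase family gene, differed by -0.78 in LR2 and 0.27 in parental cells (-1.05 apart). COPG2, a coatomer subunit gene, differed by -0.24 in LR2 and 0.79 in parental cells (-1.03 apart), and RALGAPA2, a Ral GTPase-activating protein gene, by -0.23 in LR2 and 0.78 in parental cells (-1.01 apart). The lysosomal protease gene CTSZ differed by -0.14 in LR2 and 0.86 in parental cells (-1.0 apart), and the intelectin gene ITLN2 by -0.63 in LR2 and 0.35 in parental cells (-0.98 apart). JRKL was below the floor of 5.36 in untreated LR2 cells (5.30) and in parental cells with crizotinib (5.10), and HKDC1 in LR2 cells with crizotinib (5.22) and in untreated parental cells (5.28). Of the 6, COPG2 alone had another probe set above the floor. The LR2 difference of CTSZ was smaller than 0.147, the spread used here for single genes. That value is the SD across all kept genes of the LR2 minus parental crizotinib difference, divided by the square root of 2. It also holds real differences between the lines, and it is not a spread between replicates. Parental ceritinib differences were 0.01 for JRKL, 0.14 for HKDC1 and 0.15 for COPG2. They were 0.07 for RALGAPA2, 0.10 for CTSZ and 0.06 for ITLN2. Each gap rests on single arrays, the parental crizotinib array among them. The difference between the lines was not tested directly. No departure of the LR2 crizotinib array was called in limma for any of the 6. That term is not the difference between the lines, as its fit also holds the ceritinib arrays.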

How the results depend on the processing

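All 153 named genes moved by less than 0.147, the spread across genes defined above, under median-centred arrays and under quantile normalization. With the mean of all probe sets 98 of 153 did and 55 moved further. Without probe sets whose names carry a cross-hybridization suffix, 113 of 138 did, 24 moved further and CCNE1 turned to 0.01. With the mean of all probe sets 135 genes were higher and 60 were apart between the lines, and without the filter 413 were apart. At 2-fold, 50 genes were higher, 73 lower and 8 apart, with 5 FOXO genes higher, 0 ribosome genes lower, 0 mitosis genes higher and 4 matrix genes lower. At a difference of 0.32, 922 were higher, 799 lower and 1187 apart, with 19 ribosome genes lower and 26 mitosis genes higher. The additive limma counts were unstable. They were 485 higher and 312 lower with an intensity trend, 161 lower with the mean of all probe sets, 170 higher with centred arrays, 164 higher with quantile normalization, 112 higher and 39 lower without the filter, and 159 lower with the filter on the 2 LR2 arrays. Leaving out 1 array gave 0 to 792 higher and 0 to 737 lower. The 0 came without the LR2 crizotinib, LR2 untreated, parental crizotinib or parental untreated array, 98 and 51 without LR2 ceritinib, and 792 and 737 without parental ceritinib. The 4-array limma fit gave 2 higher and 16 lower, 101 and 128 with the trend, 611 and 633 with the mean of all probe sets, 60 and 79 without suffixed probe sets, 173 and 210 centred, 1182 and 981 with quantile normalization, and 0 and 1 both without the filter and with the filter on the 2 LR2 arrays. The cause of these changes was not tested. The departure term called 0 genes in limma under every alternative run. The 4-array fit pairs crizotinib and untreated arrays within each line, and no further pairing by replicate could be made with 1 array per condition.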

Other observations

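For 8 genes the brightest probe set stayed short of 1.5-fold while the median of the others above the floor passed 2-fold, so the call depended on the probe set. They were picked after their values were seen. FOS, the founding AP-1 immediate early gene, differed by -0.45 on its brightest probe set in LR2 cells with crizotinib, and by -1.26, -1.91 and -2.84 on its other 3. The same 4 probe sets gave -0.75, -1.26, -2.46 and -2.98 in parental cells with crizotinib, in that order. The count of 8 lower immediate early genes leaves FOS out. The chemokine CXCL1 differed by -0.45 on its brightest and -1.70 on its other probe set, and MYEOV by -0.37 and -1.86. The positive ones included the GDNF family ligand ARTN (0.30 on its brightest probe set), the kinesin-linked transport protein SYBU (0.12 and 1.16) and the mucin MUC20 (0.58, with a median of 1.07 over 3 others). KRT16P1, a keratin pseudogene, and MTURN made up the 8. KRT16P1 probes may share sequence with other keratins, so its value is uncertain.

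Other signalling lists were mixed. Over all kept genes 2.24% were higher and 2.36% lower, and counts of a few genes in lists this short are not read as results about those lists. Of 19 p53 target genes kept in LR2 cells, 3 were higher, namely BBC3, TP53INP1 and CCNG1, and 4 lower, led by PLK2 and the nuclease AEN (-0.95), while CDKN1A differed by -0.57. TP53INP1 differed by 0.78 on its brightest probe set and -0.12 on its other one. Of 14 TGF-beta and BMP genes, the dominant-negative HLH factors ID1 and ID2 went opposite ways, at -1.17 and 0.98. Of 8 kept STAT3 targets, CEBPD (-1.30) and JUNB were lower. Of 11 NF-kB targets and cytokines, CXCL8, the cyclooxygenase PTGS2 (-1.41) and CXCL2 (-1.05) were lower and NFKBIA differed by 0.18. With crizotinib PTGS2 (4.88) and CXCL2 (5.29) were below the floor. Of 16 kept epithelial and mesenchymal genes, the tight junction genes CLDN3 (0.65) and OCLN (0.63) were higher and 14 did not pass 1.5-fold. CDH1 differed by 0.09.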
